A study of Mus musculus with 4 samples.

Results

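The genes described here encode BNIP3, its paralogue NIX (gene Bnip3l) and 8 other proteins that mark mitochondria for removal by autophagy or carry out the capture: Fundc1, Pink1, Phb2, Fkbp8, Sqstm1, Optn, Map1lc3b and Becn1. They were chosen by name, as the BNIP3 family and other mitophagy receptors and adaptors, and all 10 were found among the 38293 genes of the deposited table. RNA came from the ventricles of single mouse embryos at stage E12.5, on a C57BL/6 background, after atria and valves had been cut away. All 4 embryos were littermates (litter 6) of matching somite number. The KO group (n = 2, replicates 2 and 3) carried floxed Hif1alpha on both chromosomes and Cre at 1 Nkx2.5 allele (Hif1alpha flox/flox, Nkx2.5 Cre/+). The control group (n = 2, replicates 2 and 3) carried the same floxed alleles without Cre (Hif1alpha flox/flox, Nkx2.5 +/+). Nkx2.5 marks heart muscle precursors, so the Cre acts in heart muscle and in other descendants of those precursors. No group had the Cre without the floxed alleles, and effects of Hif1a loss cannot be told apart from those of the Cre or of the altered Nkx2.5 allele.

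Mitophagy is the selective delivery of mitochondria to lysosomes. In its receptor branch, proteins anchored in the mitochondrial membrane bind LC3-type proteins on the growing autophagosome directly. In its ubiquitin branch, the kinase PINK1 accumulates on damaged mitochondria and sets off the tagging of their surface with ubiquitin, after which adaptors such as p62 and optineurin bridge ubiquitin to LC3. BNIP3 is the receptor best known as a target of HIF-1, the transcription factor whose oxygen-regulated subunit is encoded by Hif1a. In the developing heart, mitophagy takes part in the remodelling of the mitochondrial network as heart muscle cells mature.

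Of the 10 genes, Bnip3 was the 1 that passed the test, and it fell 4.52-fold in KO ventricles. Its paralogue Bnip3l was 1.33-fold lower and did not pass. The other 8 genes had log2 fold changes between 0.0006 and 0.25, and none passed. The call was an adjusted p under 0.05 in edgeR's quasi-likelihood test over all 13711 genes that passed the count filter, and all 10 genes passed that filter. Over all those genes 0.511% were called, 50 of them lower in KO, which is 0.365% of the genes tested.

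The total expected count, an estimated number of reads assigned to genes, was between 8561687 and 19801300 per library, the largest in KO replicate 3. Hif1a had 716 and 663 CPM (counts scaled to library size, with TMM factors between libraries) in the KO libraries, against 530 and 552 CPM in the control libraries. Its log2 fold change of 0.35 ± 0.09 (SE) did not pass edgeR's test (adjusted p = 0.317). Reads from floxed and other exons are counted together, so this value checks nothing about the deletion. The 12 markers of heart muscle summed to 41230 and 38090 CPM in the KO libraries and to 42080 and 40940 CPM in the control libraries. The 7 atrial markers summed to 570 and 518 CPM in KO and to 649 and 560 CPM in control. Most of that atrial sum was Myl7, with 429 and 418 CPM in KO and 532 and 433 CPM in control. Sln, another of the 7, had at most 0.20 CPM in a library. KO replicate 3 was male by its sex-linked genes, with 2.12 CPM of Xist against 1754 to 2097 CPM in the other libraries, and sex was not balanced between the groups. The labels do not say how far the replicate libraries were handled apart beyond coming from different embryos, and p-values measure the spread between these samples only.

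Bnip3 (ENSMUSG00000078566, GRCm38 chromosome 7, 138890836 to 138909519, minus strand) encodes an outer-membrane receptor of the BCL2 family. It had 317 and 689 expected counts in KO replicates 2 and 3, against 1344 and 1302 in control replicates 2 and 3. Scaled for depth these were 32.1 and 34.6 CPM in KO, against 159 and 144 CPM in control. The groups were far apart, and the KO libraries differed from each other by 0.11 and the control libraries by 0.15 on the log2 scale. The log2 fold change was -2.18 ± 0.10 (SE), with a 95% interval from -2.40 to -1.96 and an adjusted p of 3.15e-05 in edgeR's test. Each KO library on its own stood well below the control mean, by -2.24 in replicate 2 and -2.13 in replicate 3.

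The promoter of Bnip3 is shown because HIF-1 binds DNA through a short core, written ACGTG or GCGTG, and the windows of 2 genes that did not pass the test are shown beside it. RefSeq's table (GRCm38.p6) held a promoter for 8 of the 10 genes, all but Bnip3l and Becn1. Each line is the 250 bases before the RefSeq start, read 5′ to 3′ on the gene's strand, with matches to either core on either strand in capitals. The windows lie at chr7:138909507-138909756 on the minus strand (Bnip3), chr8:70527493-70527742 on the plus strand (Fkbp8) and chr11:50210821-50211070 on the minus strand (Sqstm1).
Bnip3: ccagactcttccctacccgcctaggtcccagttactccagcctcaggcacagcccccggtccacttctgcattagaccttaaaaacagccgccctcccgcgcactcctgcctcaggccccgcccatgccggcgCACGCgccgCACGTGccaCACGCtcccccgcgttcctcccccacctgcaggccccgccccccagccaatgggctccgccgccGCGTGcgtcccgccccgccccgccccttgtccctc
Fkbp8: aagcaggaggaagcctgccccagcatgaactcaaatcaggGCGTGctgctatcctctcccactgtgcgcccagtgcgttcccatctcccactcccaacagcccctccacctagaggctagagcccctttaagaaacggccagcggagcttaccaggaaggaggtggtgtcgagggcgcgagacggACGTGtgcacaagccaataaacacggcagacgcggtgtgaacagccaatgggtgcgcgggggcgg
Sqstm1: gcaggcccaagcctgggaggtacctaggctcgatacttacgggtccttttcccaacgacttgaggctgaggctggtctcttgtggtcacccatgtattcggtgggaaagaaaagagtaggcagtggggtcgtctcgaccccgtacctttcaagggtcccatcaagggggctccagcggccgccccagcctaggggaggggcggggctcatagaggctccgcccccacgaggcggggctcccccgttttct

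The Bnip3 window held 5 matches, 2 to ACGTG and 3 to GCGTG. Both matches to ACGTG were the same stretch, the palindrome CACGTG that starts 108 bases before the start and reads as the core on each strand, so the matches mark 4 separate places. CACGTG was in 6.02% of all 32841 promoter windows of this length, ACGTG in 16.6% and GCGTG in 28.2%. Of the 8 genes with a window, Bnip3 was the 1 with CACGTG. Map1lc3b, which did not pass, also held 5 matches, all to GCGTG, and 1.01% of all windows held 5 or more. Any link between the number of matches and the change in level was not tested. Fkbp8 held 1 match to each core, Phb2 held 1 to ACGTG, Pink1 held 1 and Optn 2 to GCGTG, and Fundc1 and Sqstm1 held none. RefSeq starts differ from those of GENCODE, the annotation used here for gene positions. The Fundc1 window (17572008 to 17572257, minus strand) lies wholly inside the GENCODE gene, which reaches to 17572325. The Map1lc3b window ends at 121590437 on the plus strand, past the GENCODE start at 121590361. Windows of Bnip3, Pink1, Fkbp8 and Sqstm1 also reach past the GENCODE start, by fewer bases than that of Map1lc3b. The matches are of letters, and binding was not measured.

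**Figure D1:**
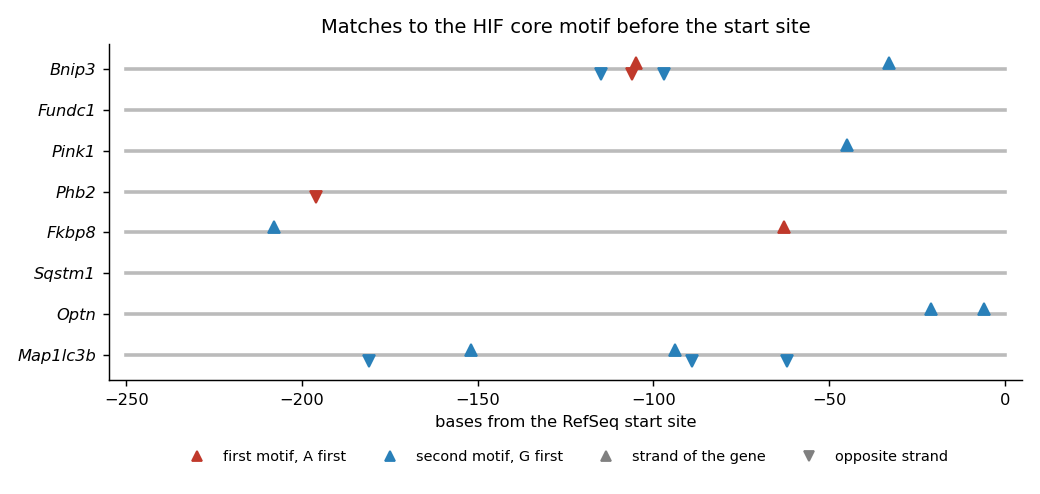
Positions of matches to the HIF core in the 250 bases before the RefSeq start of 8 genes. The horizontal axis is the distance from the start in bases, red marks are ACGTG and blue marks GCGTG, and a triangle pointing up is a match on the gene's strand. Bnip3 and Map1lc3b each have 5 matches, and those of Map1lc3b are all of the second kind.

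Reads of Bnip3 could be shared with other genes. A processed pseudogene on chromosome 14, Gm16439, matches it over 564 bases at 98.9% identity and had an expected count of 0 in all 4 libraries. The antisense gene Gm45507 covers 22.3% of the exon bases of Bnip3 and has no entry of its own among the genes of the deposited table. Sequences of 2 further copies were found that have no entry there either, so reads of these could not be checked. The library kit named in the labels does not keep the strand, so reads of the antisense gene cannot be told apart from those of Bnip3.

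Bnip3l (ENSMUSG00000022051, chromosome 14, 66985239 to 67008877, minus strand) encodes NIX, the receptor known for clearing mitochondria from maturing red blood cells. It had 127 and 130 CPM in the KO libraries, against 170.3 and 170.1 CPM in the control libraries. The groups did not overlap, and replicates of a group lay within 0.036 of each other on the log2 scale. The log2 fold change was -0.41 ± 0.08 (SE), with a 95% interval from -0.59 to -0.23. Its adjusted p was 0.0979 in edgeR's test (unadjusted 0.00071), and DESeq2 called it with an adjusted p of 0.0316. A copy, the pseudogene Bnip3l-ps, matches it over 1131 bases at 99.4% identity and held between 3.21 and 8.48 expected counts per library, and the log2 fold change was -0.41 with the copy added.

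Markers of red blood cells are given beside Bnip3l because KO replicate 2 differed in them. The summed level of the 15 measured erythroid markers was 2948 CPM in KO replicate 2 and 7013 CPM in KO replicate 3, against 5559 and 6390 CPM in the control libraries, and no marker was at 0 throughout. All 15 had negative log2 fold changes, none passed, and the list's median in KO replicate 2 against the control mean was -0.95, while in KO replicate 3 it was 0.041. Against the control mean, Bnip3l stood at -0.43 in KO replicate 2 and at -0.39 in KO replicate 3. The part of red blood cells in these values of Bnip3l was not tested. In bulk tissue, fewer cells of a type and less RNA per cell cannot be told apart.

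Other cell types of the ventricle are given here for the BNIP3 pair together. The 12 endothelial markers summed to 1504 and 1357 CPM in KO, against 1599 and 1687 CPM in control, with a median log2 fold change of -0.21, all 12 negative and none past the test. Of these 12, 7 were lower in both KO libraries than in both control libraries, and edgeR's unadjusted p was under 0.05 for 5. The 11 epicardial markers summed to 419 and 328 CPM in KO, against 405 and 460 CPM in control (median -0.23). Of these 11, 10 had negative log2 fold changes and 1, Tbx18, a positive one (0.09 ± 0.14). The keratin gene Krt19 was the 1 that passed (-1.03 ± 0.16, adjusted p = 0.0347 in edgeR's test), against 0.511% of all genes tested. Without overlap, 4 epicardial markers were lower in KO, each with edgeR's unadjusted p under 0.05. They were Krt19, Krt8 (-0.85 ± 0.22), Msln (-0.69 ± 0.14) and Wt1 (-0.39 ± 0.12). The 13 markers of mesenchyme and smooth muscle, 12 of them tested, summed to 1284 and 1598 CPM in KO, against 1664 and 2037 CPM in control, with a median of -0.037. None of them passed, but 4 were lower in both KO libraries than in both control libraries, and edgeR's unadjusted p was under 0.05 for each of the 4. They were Acta2 (log2 fold change -0.63 ± 0.11, adjusted p = 0.0598 in edgeR's test) and Tagln (-0.42 ± 0.09), both smooth muscle genes also used by immature heart muscle, and the cartilage matrix genes Col2a1 (-1.67 ± 0.54) and Acan (-1.31 ± 0.44). Acta2 had 497 and 599 CPM in KO, against 833 and 862 CPM in control. Col2a1 had 5.46 and 36.1 CPM in KO, far apart from each other, against 79 and 65 CPM in control. Acan was barely detected, with 0.61 and 1.2 CPM in KO, against 2.0 and 2.6 CPM in control. Over all genes tested, 18.8% were lower in KO without overlap, and edgeR's unadjusted p was under 0.05 for 6.97%. Of the 12 tested markers of mesenchyme and smooth muscle, 4 went the other way, with log2 fold changes from 0.22 (Postn) to 0.69 (Twist1). The groups overlapped for each of those 4. The 10 immune markers, 8 of them tested, summed to 99.7 and 73.4 CPM in KO, against 91.7 and 107.5 CPM in control, with a median of -0.056. No marker in these lists was at 0 in all libraries, and their part in the values of Bnip3 and Bnip3l was not tested.

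The balance within the BNIP3 pair differed between the groups. Per kilobase of merged exons, Bnip3 made up 30.1% and 31.2% of the pair's level in the KO libraries, against 61.4% and 59.0% in the control libraries. On the CPM scale, without correction for length, the log2 ratio of Bnip3 to Bnip3l was -1.98 and -1.91 in KO, against -0.10 and -0.25 in control. The KO mean minus the control mean was -1.77, and the groups did not overlap. The exact permutation test (two-sided) gave p = 0.333, the smallest that 2 libraries against 2 allow. The pair's summed level was 162 ± 4.10 CPM in KO and 321 ± 11.0 CPM in control (SD, n = 2 each).

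**Figure D2:**
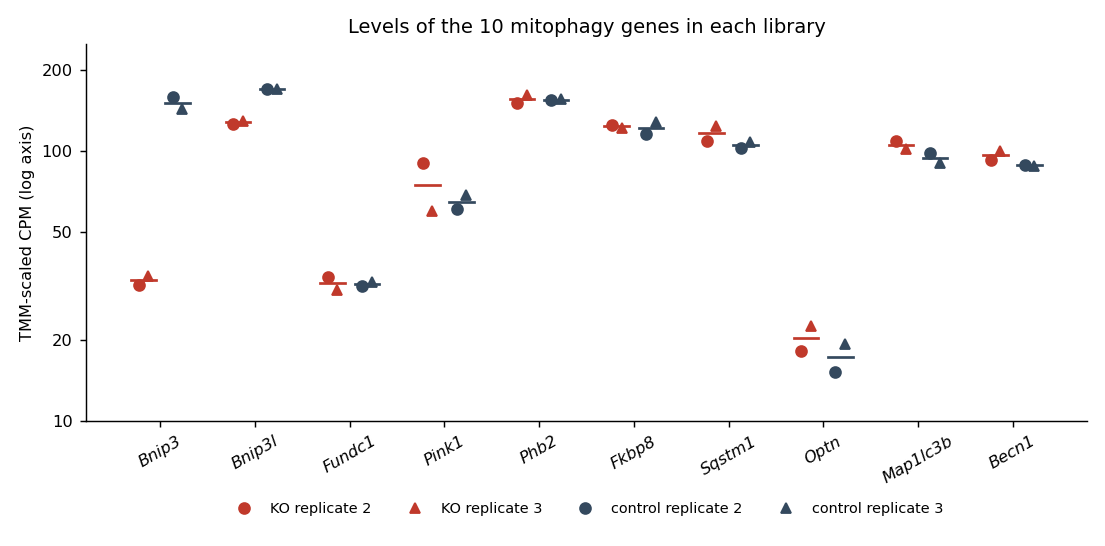
TMM-scaled CPM of the 10 genes in each library, on a log axis, with KO libraries left of control libraries and a line at each group's mean. Bnip3 stands at 32.1 and 34.6 CPM in KO against 159 and 144 CPM in control. Bnip3l stands at 127 and 130 CPM in KO against 170.3 and 170.1 CPM in control. Among the other genes, Pink1 has the widest gap between libraries of a group on this axis, at 90.2 and 59.9 CPM in KO.

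The other membrane receptors differed little between the groups. Fundc1 (ENSMUSG00000025040, chromosome X), an outer-membrane receptor that hypoxia regulates through its phosphorylation, had 34.1 and 30.7 CPM in KO, against 31.6 and 32.9 CPM in control. The groups overlapped, the log2 fold change was 0.0006, and the 95% interval was from -0.23 to 0.23. The gene lies on chromosome X, and the single male library, KO replicate 3, had the lowest of the 4 values. Fkbp8 (ENSMUSG00000019428, chromosome 8), a chaperone of the FK506-binding family that can act as a receptor, had 125 and 122 CPM in KO, against 116 and 128 CPM in control. Its KO values lay between the control values, with a 95% interval of the log2 fold change from -0.18 to 0.21. Phb2 (ENSMUSG00000004264, chromosome 6), an inner-membrane prohibitin exposed when the outer membrane breaks, had 152 and 161 CPM in KO, against 154 and 156 CPM in control. The control values lay between the KO values, and the 95% interval was from -0.17 to 0.20.

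Pink1 (ENSMUSG00000028756, chromosome 4), the kinase that starts the ubiquitin branch, had the widest gap between KO replicates of the 10 genes. It had 90.2 and 59.9 CPM in KO, against 61.1 and 69.1 CPM in control. KO replicate 2 was the highest library and KO replicate 3 the lowest, 0.59 apart on the log2 scale. The log2 fold change of 0.19 ± 0.18 (SE; adjusted p = 0.870 in edgeR's test) was -0.12 without KO replicate 2 and 0.47 without KO replicate 3.

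The adaptors and the capture machinery had slightly positive log2 fold changes that did not pass. Sqstm1 (ENSMUSG00000015837, chromosome 11), which encodes the adaptor p62, had 108.8 and 124.4 CPM in KO, against 102.9 and 108.7 CPM in control, and the groups touched without overlapping. Optn (ENSMUSG00000026672, chromosome 2), which encodes optineurin, was the lowest of the 10 genes, with 18.2 and 22.6 CPM in KO, against 15.2 and 19.3 CPM in control. Its groups overlapped and its log2 fold change was 0.25 ± 0.16 (SE), with a 95% interval from -0.12 to 0.63. With 1 library left out, the log2 fold change of Optn was 0.074 (without KO replicate 3), 0.092 (without control replicate 2), 0.38 (without KO replicate 2) or 0.43 (without control replicate 3). That of Sqstm1, 0.14 with all libraries, was 0.039 without KO replicate 3 and 0.23 without KO replicate 2.

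Map1lc3b (ENSMUSG00000031812, chromosome 8) encodes LC3B, the ubiquitin-like protein that is attached to the autophagosome membrane. It had 109 and 102 CPM in KO, against 98.8 and 90.8 CPM in control, with no overlap, and its 95% interval was from -0.052 to 0.35. Becn1 (ENSMUSG00000035086, chromosome 11) encodes beclin 1, a subunit of the lipid kinase complex that starts autophagosome formation. It had 93.2 and 101 CPM in KO, against 88.8 and 88.5 CPM in control, also with no overlap, and its 95% interval was from -0.063 to 0.32. The log2 fold change of Map1lc3b, 0.15 with all libraries, was 0.091 without control replicate 3, and that of Becn1, 0.13 with all libraries, was 0.072 without KO replicate 3. Adjusted p values of Sqstm1, Optn, Map1lc3b and Becn1 lay between 0.769 and 0.791 in edgeR's test.

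Some of these genes share sequence or position with others. Map1lc3b has 4 processed pseudogenes at 96.5% to 99.7% identity, none with over 8.66 expected counts in a library, and its log2 fold change was 0.14 with them added. Exons of Becn1 share 43.9% of their bases with Cntd1 on the other strand, and those of Sqstm1 share 17.3% with Mrnip. Cntd1 had 19.7 and 48.4 expected counts in KO, against 5.16 and 1 in control, so it was higher in KO as Becn1 was, and its part in the value of Becn1 was not tested.

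Without overlap between the groups, 2 of the 10 genes were lower in KO (Bnip3 and Bnip3l) and 3 were higher (Sqstm1, Map1lc3b and Becn1). Over all genes tested, 18.8% were lower and 19.4% were higher in KO without overlap. With 2 libraries per group, a lack of overlap by itself says little, and the 3 higher genes did not pass the test.

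**Figure D3:**
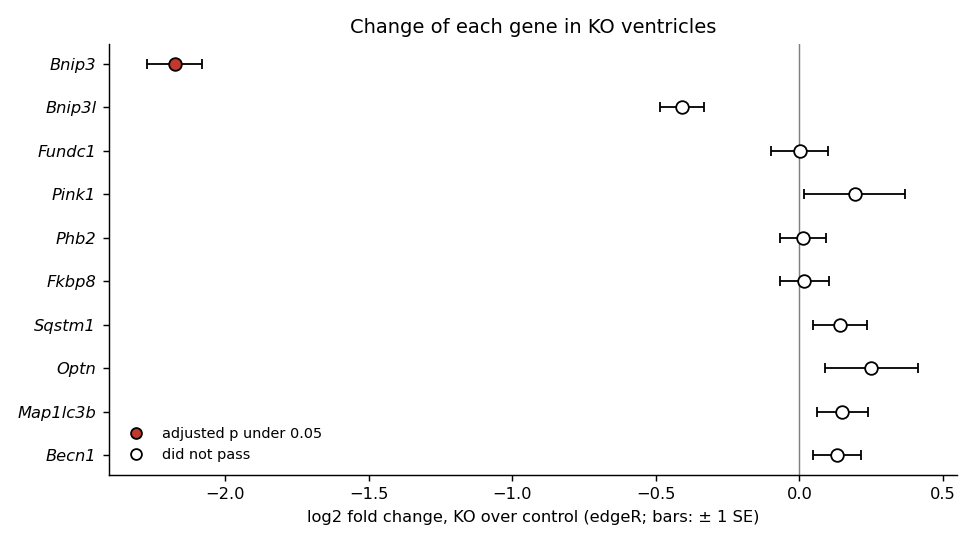
Log2 fold change of each gene, KO over control, with bars of 1 standard error from the fit over all genes (n = 2 libraries per group). The filled point, Bnip3 at -2.18, passed the test, and the open points did not, Bnip3l at -0.41 and the other 8 between 0.0006 and 0.25.

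The BNIP3 pair was set against the 8 other genes, and Bnip3 stood further from them than Bnip3l. The median log2 fold change of the 8 other genes was 0.14, against -0.0003 for all genes tested, and it was 0.073 without KO replicate 3 and 0.079 without KO replicate 2. The log2 ratio of Bnip3 to each of the 9 other genes was lower in both KO libraries than in both control libraries, with differences of the means from -2.42 (to Optn) to -1.77 (to Bnip3l). The log2 ratio of Bnip3l to each of the 8 genes outside the pair was also lower in both KO libraries than in both control libraries, by -0.65 (to Optn) to -0.42 (to Fundc1). These ratios are taken within a library and do not depend on its scaling. All 17 ratios gave an exact permutation p of 0.333 (two-sided, and 0.333 after adjustment over the 17), the smallest the design allows. The ratios share their numerators and are not independent of each other. Those of Bnip3 restate its own fall, which was larger than the difference of any other member, and are no separate support.

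**Figure D4:**
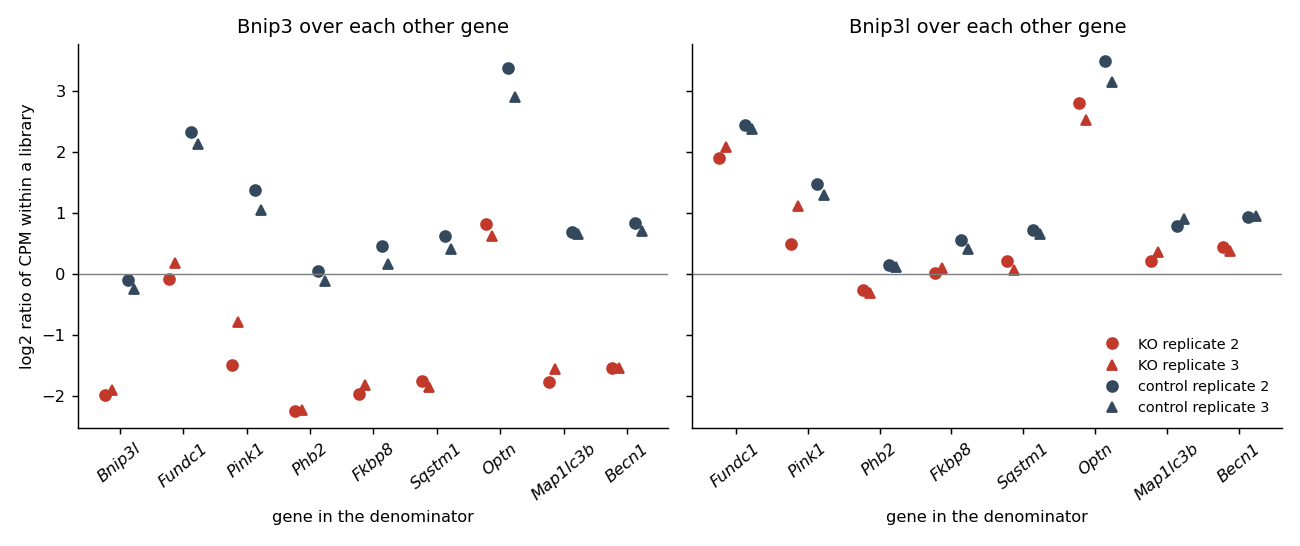
Log2 ratios of Bnip3 (left) and Bnip3l (right) to each other gene within a library, on the CPM scale. KO libraries lie below control libraries for every denominator, with the smallest separation on the left against Bnip3l (difference of means -1.77) and on the right against Fundc1 (-0.42).

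Levels can be ranked between genes only per length, and CPM per kilobase of merged exons was used. In KO ventricles Bnip3 was sixth of the 10, at 14.2 and 15.3 CPM per kilobase, and overlapped with Map1lc3b, Fundc1 (mean 13.8) and Becn1 (13.7) below it. Phb2 was the highest there (42.1), followed by Sqstm1 (34.8), Bnip3l (33.2), Pink1 (28.1) and Fkbp8 (27.3), the last 4 overlapping from one to the next, and Optn was the lowest (5.43). In control ventricles Bnip3 was the highest, at 70.1 and 63.4 CPM per kilobase, above Bnip3l (mean 44.1), Phb2 (41.8), Sqstm1 (31.5), Fkbp8 (27.0), Pink1 (24.4), Fundc1 (13.7), Map1lc3b (12.6), Becn1 (12.6) and Optn (4.6). Of these neighbours, Fkbp8 and Pink1 overlapped between libraries, and so did Map1lc3b and Becn1. The merged exons of Becn1 and Map1lc3b are long, 7065 and 7517 bases, and with the mean transcript length in place of merged exons 7 genes in KO and 8 in control changed their rank, while Bnip3 was seventh in KO and the highest in control.

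The genes whose pattern over the 4 libraries was most like that of Bnip3 were Pdk1, Slc16a3, Ak4, Pfkl and Ldha. Likeness was the root mean square distance between centred log2 CPM profiles, over 10640 tested genes with a mean of at least 5 CPM. Genes without a symbol, predicted genes (Gm or LOC numbers, Rik names) and pseudogenes were left out. A small distance here mostly reflects a fall of similar size. The distances were 0.12, 0.17, 0.23, 0.29 and 0.30 in that order. Pdk1, which encodes a kinase that restrains pyruvate dehydrogenase, had 64.6 and 59.7 CPM in KO, against 253 and 260.2 CPM in control. Slc16a3, which encodes a lactate exporter, had 23.8 and 32.6 CPM in KO, against 109 and 117 CPM in control. Log2 fold changes of these 5 genes ran from -2.05 (Pdk1) to -1.58 (Ldha, which encodes a subunit of lactate dehydrogenase). The genes most like Bnip3l were Slfn9, Fry and Anxa2, at distances of 0.018 to 0.021, and none of the 3 passed edgeR's test (adjusted p between 0.136 and 0.18).

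Genes of the wider pathway were taken from 7 lists: further mitophagy factors, the ATG8 family, core autophagy, lysosome, mitochondrial fission and fusion, mitochondrial content, and the BCL2 family. Outside the 10 genes they held 135 genes of the table, of which 132 were tested, and 0 passed in either direction in edgeR's test. Over all genes tested 0.511% were called, so a count of 0 in a set of this size says little by itself. DESeq2 and limma-voom also called 0 of these pathway genes. EdgeR's unadjusted p was under 0.05 for 6 of the 132 (4.55%, against 6.97% of all genes tested). Their median log2 fold change was 0.035, with values from -0.50 to 0.38.

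By list, medians were 0.03 for the 24 further mitophagy factors, 0.15 for the 5 ATG8 genes (Map1lc3b included), 0.038 for the 26 core autophagy genes (Becn1 included) and 0.038 for the 26 lysosomal genes. They were 0.005 for the 16 fission and fusion genes, 0.03 for the 20 genes of mitochondrial content and 0.041 for the 17 BCL2 family genes. Of the further mitophagy factors, Tomm7, a small subunit of the import channel that holds PINK1 at the outer membrane, had the smallest p, with 46.9 and 45.2 CPM in KO, against 42.3 and 28.3 CPM in control. Of the ATG8 family, Gabarapl1 had 40.2 and 38.7 CPM in KO, against 34.9 and 33.7 CPM in control (log2 fold change 0.20 ± 0.09, SE).

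In the core autophagy list Atg9a, which encodes the lipid scramblase that rides on autophagosome-forming vesicles, was the gene with the smallest p. It had 30.1 and 28.5 CPM in KO, against 39.5 and 43.0 CPM in control (log2 fold change -0.50 ± 0.10, SE; adjusted p = 0.106 in edgeR's test). The groups did not overlap, and the difference was near that of Bnip3l in size. The protease gene Ctsd of the lysosome had a log2 fold change of 0.22 ± 0.09, the fission gene Fis1 0.21 ± 0.11, and Timm23, which encodes the inner-membrane import channel, 0.38 ± 0.12. Bak1, which encodes a pore-forming killer protein of the BCL2 family, had 32.9 and 34.4 CPM in KO, against 38.9 and 48.2 CPM in control (-0.37 ± 0.12). None of these passed (adjusted p between 0.529 and 0.749 for the last 4).

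Of the 10 genes for HIF subunits and oxygen-sensing enzymes, 1 fell, 0 rose and 9 did not pass (median -0.064), and DESeq2 called 2 of the 10. Over all genes, edgeR called 0.511% of those tested, and DESeq2 called 94 genes. The gene that fell was Egln1, which encodes the main prolyl hydroxylase that marks HIF subunits for destruction. It had 58.8 and 63.5 CPM in KO, against 112 and 109 CPM in control (log2 fold change -0.85 ± 0.09, adjusted p = 0.00391 in edgeR's test), a smaller difference than that of Bnip3.

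**Figure D5:**
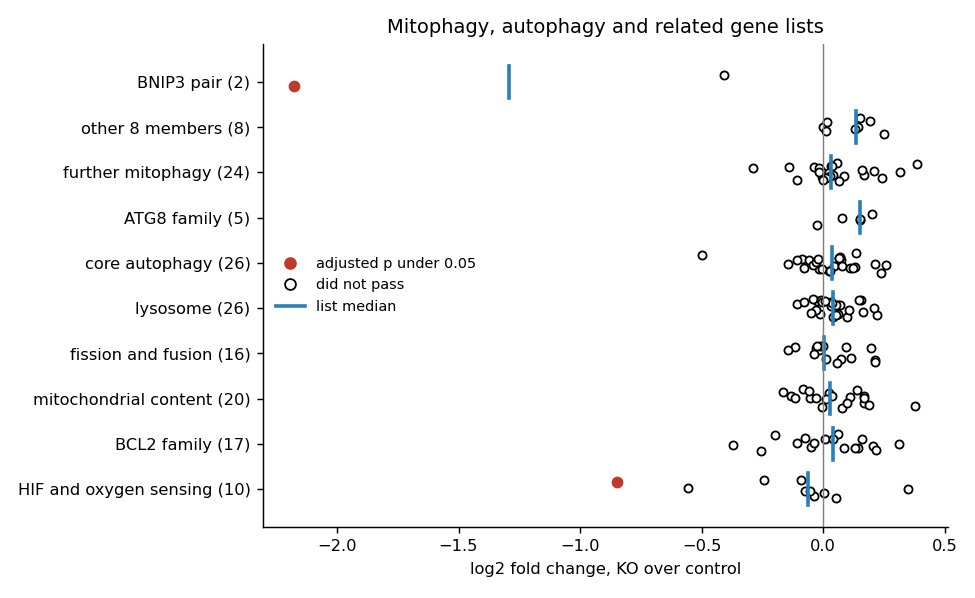
Log2 fold change, KO over control, of each tested gene in the pair, the other 8 genes and the wider lists, with the number tested in brackets and a bar at each list's median. Filled points passed the test and are Bnip3 at -2.18 and Egln1 at -0.85, and medians of the lists outside the pair lie between -0.064 and 0.15.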

How the data were processed

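Polyadenylated RNA was sequenced from 4 ventricles, 500 ng of total RNA each, as single reads of 75 bases, per the labels' protocols. The deposited values are expected counts, estimated per gene by the authors and not always whole. The submitters' processing notes name RSEM 1.2.3, cutadapt 1.3, CASAVA 1.8.2 and GRCm38 as build; for annotation and settings, nothing is given in the sources used here. Symbols, positions and exon lengths came from GENCODE M21 (GRCm38), which named 36345 of 38293 identifiers; the others held at most 0.338% of a library's counts.

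Counts were rounded, filtered by edgeR's default rule by group (minimum count 10, minimum total 15), scaled by TMM and compared with edgeR 4.0.16 (glmQLFit and glmQLFTest, R 4.3.3), with Benjamini-Hochberg adjustment over 13711 genes. Standard errors were obtained from each gene's log2 fold change and its F statistic. The variance in that statistic is moderated over genes, with 8.14 degrees of freedom for the members against 2 from the libraries. Standard errors, intervals and p-values are therefore not a measure of a gene's own replicate spread alone. Steps were tested on simulated counts. Copies were sought with BLAST 2.17.0 (at least 95% identity over 300 bases). Alternatives were DESeq2 1.42.0, limma 3.58.1 (voom), other scalings and filters, a replicate block, each library left out, sex chromosomes left out of scaling, and copies summed.

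The members and lists were chosen with earlier results of these data known. Named were the 10 members, Hif1a, the genes most like Bnip3 (5) and Bnip3l (3), and from each pathway list, the HIF list included, up to 4 genes past the test, or else the 1 with the smallest p. Genes named from the cell type marker lists were chosen after their values were seen.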

Additional observations from a re-analysis of the deposited data

How the results depend on the processing

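Bnip3 passed under all 13 alternatives, with log2 fold changes from -2.25 to -2.10 and adjusted p values up to 0.000388. Bnip3l kept its direction in all 13 (-0.43 to -0.39) and passed in DESeq2 alone (-0.409, adjusted p = 0.0316, range over all 0.0316 to 0.393), which made 2 members called. The pathway genes gave 0 calls under all 13. Over all genes, 70 were called, 20 higher and 50 lower in KO; leaving out 1 library gave 39 to 141, with 24 to 69 lower and 15 to 72 higher, the lowest total without control replicate 3 and the highest without KO replicate 2. Higher calls numbered 10 with a mean of at least 5 CPM and 31 in DESeq2. The median of the 8 other members (0.136) was 0.157 with upper-quartile scaling, 0.142 without a filter, 0.133 with the replicate block and 0.0726 to 0.110 with 1 library left out, and Bnip3 minus that median was -2.36 to -2.20. Values near 0 changed sign: Fundc1 to -0.00079 with DESeq2's size factors and -0.0106 with limma-voom, and with 1 library left out Fundc1 ranged from -0.0686 to 0.0814, Pink1 from -0.121 to 0.470, Phb2 from -0.0357 to 0.0552 and Fkbp8 from -0.0529 to 0.0915. By mean transcript length 7 members in KO and 8 in control changed rank. What caused these shifts was not tested. With the replicate block the count of calls was 75, 69 of them among the 70, Bnip3 had -2.17 and no member's call changed; libraries with the same number had deviations from their group means that correlated at 0.106 over genes, and no label links a number to a batch or dam. Fits with 1 library left out take the spread of the remaining group for the single library as well. With 2 libraries per group, differences as small as those of the 8 other members could not be resolved.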
